A study of Papio hamadryas with 17 samples.

Results

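Kidney cortex biopsies of baboons were ranked by how strongly they carried 3 immediate early genes, FOS, JUN and EGR1, and the 4 libraries of highest rank were set against the 4 of lowest rank. These 8 libraries come from 17, each from 1 animal (8 females and 9 males). The members were chosen by measured values: the 3 libraries with an ACTA1 signal above 10000 were left out, and in the other 14 the score was the mean log2(signal + 1) of FOS, JUN and EGR1. Signal is the deposited value of a transcript minus its offset of 1, summed over the transcripts of a gene that both deposited tables hold. FOS, JUN and EGR1 therefore describe the groups and are no result, and since the same libraries and their ranking define the contrast, differences between the groups are given as descriptions without a p-value.

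The animals were Papio hamadryas of 1 primate colony, fed a low-salt chow for life, with no treatment. Biopsies were taken under ultrasound guidance into liquid nitrogen, under ketamine and isoflurane, and libraries were made with a stranded mRNA kit. The high group held male 1, male 9 and male 3, each aged 7, and female 6, aged 18. The low group held male 4, aged 7, male 2, aged 8, female 7, aged 17, and female 3, aged 19. Ages are as labelled, without a unit. The 6 libraries between were male 8, aged 6, female 4, aged 18, male 7, aged 7, female 5, aged 18, male 5, aged 13, and female 8, aged 15. The study compared sexes, so no label separates high from low libraries, and sex, age and library name series are spread unevenly over both groups.

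Immediate early genes are switched on within minutes of a growth factor, a stress or a mechanical stimulus, without new protein synthesis. FOS and JUN proteins pair as the transcription factor AP-1, EGR1 is a zinc finger factor, and MAP kinases acting through serum response factor and CREB drive their promoters. Many of their mRNAs carry AU-rich elements and decay quickly. Feedback genes are induced alongside, among them DUSP1, a phosphatase that ends MAP kinase signalling, and ZFP36, which destabilises AU-rich mRNAs. In kidney tissue these genes are known to respond to ischaemia, to handling and to tissue dissociation.

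The score ran from 6.11 in male 1 through 4.95 in male 9, 4.26 in male 3 and 4.02 in female 6 down to 2.95 in male 4, 2.92 in female 7, 2.45 in female 3 and 2.36 in male 2. Just outside the groups lay male 8 at 3.85 and female 8 at 2.96, so the lower edge separated 2 nearly equal libraries. FOS signal in the high libraries was 44.8 in male 1, 12.9 in male 9, 9.58 in male 3 and 5.09 in female 6. In the low libraries it was 1.54 in male 4, 1.26 in female 7, 0.0921 in female 3 and 0.903 in male 2. EGR1 signal was 87.9, 35.4, 15.9 and 29.6 in the high libraries and 6.31, 6.64, 6.97 and 3.67 in the low libraries, in the same order. JUN signal was 79.8, 57.3, 38.3 and 21.95 in the high libraries and 23.7, 24.0, 17.9 and 14.2 in the low ones. FOS and EGR1 did not overlap between the groups, whereas JUN of female 6 lay within the range of the low libraries.

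**Figure D1:**
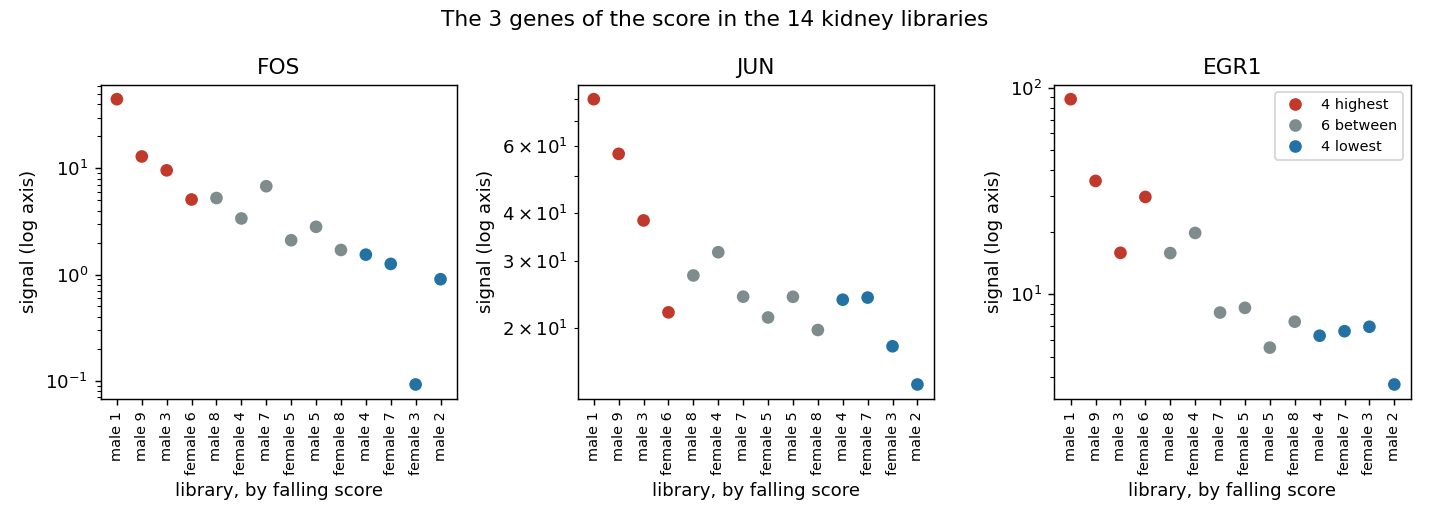
Signal (log axis) of FOS, JUN and EGR1 in the 14 libraries, ordered by falling score; red points are the 4 highest libraries, grey the 6 between and blue the 4 lowest. Male 1 tops all 3 panels, at 44.8, 79.8 and 87.9, and JUN of female 6 (21.95) sits among the low libraries.

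Low values rise in steps of roughly 1 read, and the size of a step gave each library's relative depth. The high libraries had 0.167 to 0.970 of the depth of the deepest one and the low libraries 0.688 to 1. Female 6 was the shallow one, and its FOS signal amounted to 15.998 steps, against 1.63 steps in female 3. The mitochondrially encoded share of signal was 22.5% to 46.6% in the high libraries and 27.6% to 41.6% in the low libraries. Proximal tubule genes were low in female 3, with a mean log2(signal + 1) over the marker list of 2.77, next to 5.73 in the lowest of the other females ranked.

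A filter on low values left 9191 genes, those that reached a signal of 1 in 8 or more of the ranked libraries. Over these, the high libraries differed little from the low ones as a whole. The median difference in mean log2(signal + 1), high minus low, was 0.06. A gene was counted as apart when the 4 high and the 4 low libraries did not overlap and their means differed by at least 1 on the log2 scale. By this rule 21 genes were apart and higher (0.228% of the genes tested) and 14 were apart and lower (0.152%), 35 in all (0.381%). Without the minimum difference, 94 genes did not overlap and were higher (1.02%), and 38 did not overlap and were lower (0.413%). The count depended on single libraries, since with fewer libraries more genes fail to overlap: it was 98 without female 6, 91 without male 4 and between 63 and 68 without any 1 of the other 6.

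Early response genes beyond the 3 of the score came from 3 lists with 85 symbols in all, of which 42 were in both tables and 38 passed the filter. Of these 38, 3 were apart and higher, ATF3, JUNB and DUSP1, and none was apart and lower, beside 0.228% and 0.152% of all genes. The lists share the biology of the score, and nothing is read from this count. Of the 38, 30 had a higher mean in the high libraries, as had 59.0% of all genes tested, and their median difference was 0.18. In bulk tissue, fewer cells of a type and less RNA per cell cannot be told apart.

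Among the transcription factors, 13 of 28 listed were tested and 2 were apart. JUNB (gene29950, sequence NC_018170.2, 11568828 to 11570684, plus strand) encodes a partner of FOS in AP-1. Its signal was 53.1 in male 1, 21.4 in male 9, 20.03 in male 3 and 23.5 in female 6, and 10.9 in male 4, 13.1 in female 7, 15.0 in female 3 and 6.91 in male 2. Male 1 stood well above the others, and the lowest high library was above the highest low one. The group means were 29.5 ± 15.8 (SD, n = 4) and 11.5 ± 3.46 (SD, n = 4), a log2 difference of 1.22, which became 0.90 without male 1 and was 0.71 within the females. With signal scaled to the total without mitochondrially encoded genes, JUNB overlapped between the groups. The 6 libraries between ran from 10.7 to 22.2 with a median of 12.3.

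ATF3 (gene34346, scaffold NW_018778491.1, 1447081 to 1500102, plus strand) encodes a stress-induced member of the ATF/CREB family. Its signal was 8.07 in male 1, 3.97 in male 9, 2.21 in male 3 and 8.27 in female 6. In the low libraries it was 1.46 in male 4, 1.07 in female 7, 0.337 in female 3 and 1.01 in male 2. The low libraries were all below the high ones. The libraries between ran from 0.862 to 2.12 with a median of 1.30, and male 8 at 2.12 was just below male 3. The means were 5.63 ± 3.02 and 0.969 ± 0.467 (SD, n = 4 each), a log2 difference of 1.65. ATF3 was a low gene, with 5.97 to 147 steps per library. With a pseudocount of 10 its difference was 0.49, under the minimum of 1.

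The other 11 transcription factors tested had differences from -0.23 to 1.08. BHLHE40, a basic helix-loop-helix repressor and the most abundant member that was not apart, had 92.4, 112, 61.2 and 52.8 in the high libraries (male 1, male 9, male 3, female 6) and 85.4, 55.7, 45.4 and 43.9 in the low ones (male 4, female 7, female 3, male 2), which overlapped. IER2 and BTG2, named after their values were seen, did not overlap between the groups but differed by less than 1, with log2 differences of 0.69 and 0.96. KLF6 differed by 1.08 with overlap, and its signal was 19.6 in female 6 and 6.12 in male 1. The difference was 0.47 without female 6. FOSL2, JUND, CSRNP1, HES1 and ID1, members of the same functional class, lay between -0.07 and 0.03. The factors EGR2, EGR3 and FOSB were not analysed here.

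Among the feedback regulators, 19 of 32 listed were tested and DUSP1 alone was apart. DUSP1 (gene12398, NC_018157.2, 167078462 to 167081574, minus strand) encodes the phosphatase that inactivates MAP kinases. Its signal was 56.7 in male 1, 46.4 in male 9, 34.0 in male 3 and 30.5 in female 6, and 9.39 in male 4, 14.2 in female 7, 9.28 in female 3 and 8.24 in male 2. The gap between the lowest high library and the highest low library was wider than the spread of the low group. The means were 41.9 ± 12.0 and 10.3 ± 2.69 (SD, n = 4 each), 4.07-fold apart, with a log2 difference of 1.91. Leaving out each of the 8 libraries gave 1.76 to 2.07. Within the sexes, which are parts of the same 8 libraries, the difference was 2.22 for the 3 high and 2 low males. It was 1.33 for female 6 against female 7 and female 3. Of all 9191 genes, 198 were apart within the males and 1943 within the females, so little is read from these splits. The libraries between ran from 12.0 to 33.6 with a median of 20.9 and reached into both groups. Female 5 at 33.6 and male 7 at 33.0 were above female 6, and female 8 at 12.0 was below female 7.

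Differences of the other 18 feedback regulators ran from -0.40 to 1.10. ZFP36L1, an mRNA decay factor related to ZFP36 and the most abundant of those not apart, had 214, 199, 150 and 117 in the high libraries and 132, 94.4, 161 and 105 in the low ones. ZFP36 and SIK1, the latter a CREB-induced kinase, differed by 1.01 and 1.10 with overlap. NFKBIA and TNFAIP3, which end NF-kB signalling, differed by 0.17 and 0.24, and GADD45A and GADD45B by 0.09 and 0.10. Only 1 of 2 TNFAIP3 transcripts was in both tables.

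Of the secreted and surface proteins, 6 of 25 listed were tested, none was apart, and all 6 differences were above the all-gene median, from 0.08 to 1.22. CTGF, a matricellular protein and the most abundant of them, had 10.8, 16.5, 24.4 and 21.95 in the high libraries and 12.2, 20.2, 11.02 and 10.7 in the low ones. The largest difference belonged to the related CYR61, whose signal of 5.62 in male 9 fell within the range of the low libraries. LIF, a cytokine of the interleukin-6 family, did not pass the filter. Its signal was 1.34 to 7.84 in the high libraries and 0 to 0.173 in the low ones. LIF therefore adds nothing to the counts above. The filter did not remove every gene that was below a signal of 1 in a whole group. LTB, at 1.08 to 8.87 in the high libraries, was below 1 in all low ones and is among the genes apart and higher. LOC101021403 was below 1 in all high libraries and is among the genes apart and lower. Both passed the filter with the help of the libraries between.

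**Figure D2:**
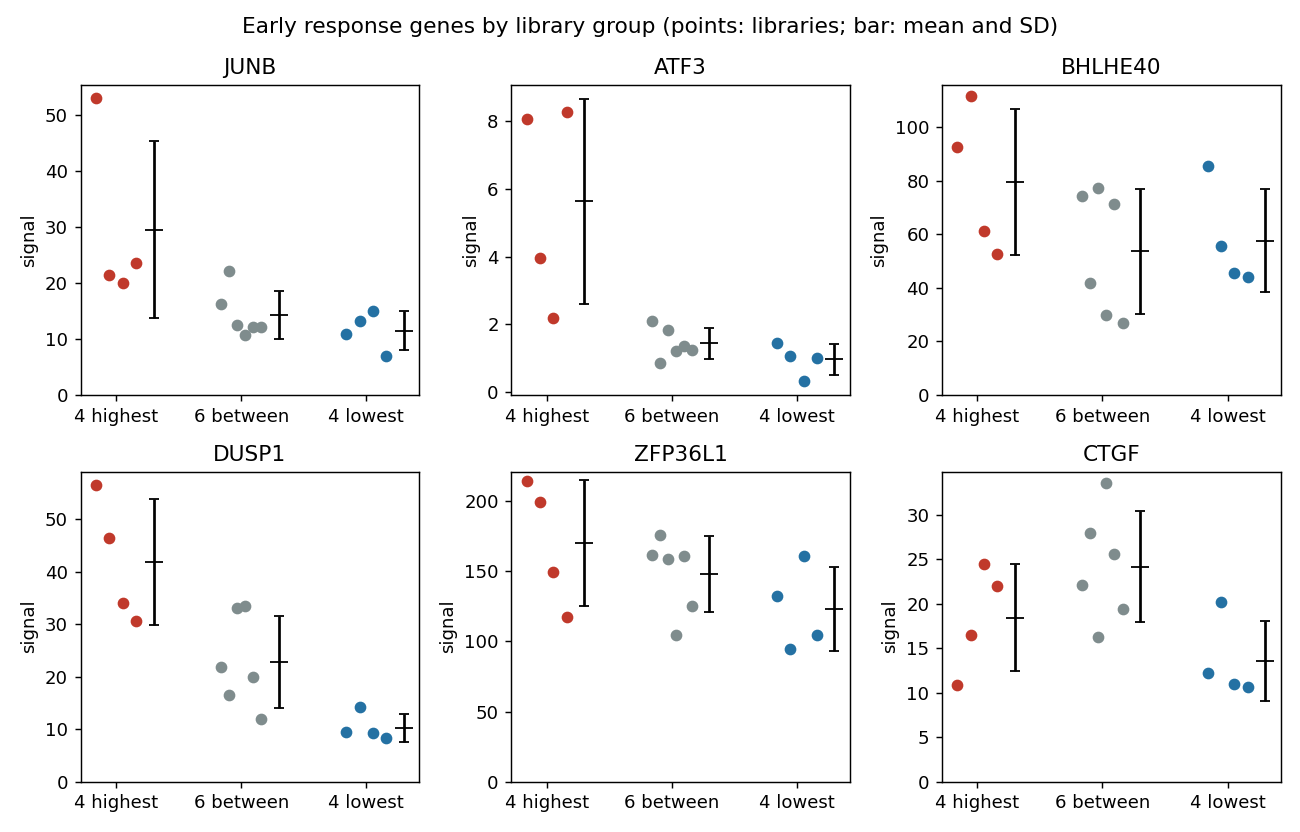
Signal of 6 early response genes in the 4 highest, 6 between and 4 lowest libraries; points are libraries in falling order of score, black bars are the mean and SD of a group. DUSP1, JUNB and ATF3 show no overlap between the high and low libraries, with DUSP1 at 30.5 to 56.7 against 8.24 to 14.2, whereas BHLHE40, ZFP36L1 and CTGF overlap.

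A further 20 early response genes held in the female table alone could be followed in the 6 females ranked, where female 6 was the single high library. Female 6 was the highest of the 6 for 7 of the 20 (35%), against 13.7% of the 3567 genes held in that table alone. At its shallow depth its values scatter more. The 20 genes share the biology of the score that placed female 6, and nothing is read from this count. NR4A1, an orphan nuclear receptor induced with FOS, had 44.5 in female 6 and 5.004 to 19.6 in the others. SOCS3, an inhibitor of cytokine signalling, had 5.09 against at most 3.52, and RGS2, a regulator of G proteins, 8.59 against at most 6.34. KLF2 and KLF4, early factors of endothelium and epithelium, were lowest in female 6, at 10.5 and 2.86, next to 16.9 and 3.13 in the lowest of the others. MAFK and SPRY2 were lowest there too, at 3.82 and 2.87, next to 4.73 and 3.10.

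The kinases and factors upstream of these genes differed little. Of 28 listed, 16 were tested and none was apart, beside 0.381% of all genes. The median difference was 0.06, as for all genes. The largest differences were those of MAP2K1, a kinase that activates ERK, at 0.56 and of RPS6KA5, a kinase of CREB and histones, at -0.49, both with overlapping libraries.

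No gene of the other stress programmes was apart, beside 0.381% of all genes. At that share, lists of this size would hold few or none, and nothing is read from the absence. None of the 19 heat shock genes tested was apart, with a median difference of 0.12 and a range of -0.37 to 0.49; HSPD1, a mitochondrial chaperonin, and CRYAB, a small heat shock protein, led at 0.49 and 0.38. None of the 15 hypoxia genes was apart, with a median of 0.22, which was -0.03 without female 3, and EGLN3, a prolyl hydroxylase induced by hypoxia, differed by 0.67 and ANKRD37 by -0.67. None of the 17 genes of the unfolded protein and integrated stress response was apart, with a median of 0.09, DNAJB9 at 0.55 and SESN2 at 0.32 having the largest differences, which were 0.18 and -0.05 without female 3. HSPD1 differed by 0.09 without it. None of the 9 clock genes was apart, with a median of 0.03, HLF at 0.43 and NPAS2 at 0.35, the latter 0.01 without female 3. Summed heat shock signal was 1536 to 2107 in the high libraries and 1243 to 1826 in the low ones.

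Glucocorticoid targets had a median difference of 0.16 over 11 tested genes, -0.07 without female 3, of which DUSP1, also a member of the feedback list, was apart. FKBP5, a sensitive target of the glucocorticoid receptor, differed by -0.02. G6PC and PCK1, enzymes of glucose production in the proximal tubule, differed by 1.47 and 1.40 with overlap, and their differences were 0.33 and 0.16 without female 3.

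Of the tubular injury genes, 17 of 24 were tested, 2 were apart and higher, SPP1 and VCAM1, and none was apart and lower, beside 0.228% and 0.152% of all genes. The list had a median difference of 0.30. Its mean log2 level, at 3.61 to 4.02 in the high libraries and 3.18 to 3.47 in the low ones, did not overlap. The only other lists of which this held were the early response transcription factors and the secreted and surface proteins. The level of the injury list includes SPP1, whose difference was 3.47, and its lack of overlap rested on SPP1. Summed signal of the injury list did overlap, at 364 to 525 against 281 to 601, and was highest in female 3, a low library. SPP1 (gene9774, NC_018156.2, 53604453 to 53612473, minus strand) encodes osteopontin, a secreted phosphoprotein made by tubule cells and macrophages. It had the largest difference of all genes that were apart. Its signal was 42.3 in male 1, 35.2 in male 9, 24.4 in male 3 and 19.6 in female 6, and 1.45 in male 4, 8.42 in female 7, 0.137 in female 3 and 1.08 in male 2. The order of the 4 high libraries was that of the score.

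The mean SPP1 signal was 30.4 ± 10.3 against 2.77 ± 3.81 (SD, n = 4 each), a log2 difference of 3.47 that stayed between 3.05 and 4.07 without any 1 of the 8 libraries. The difference was 3.92 within the males and 2.65 within the females. The libraries between reached from 0.0000200 in female 5 to 18.6 in male 8. VCAM1 (gene1440, NC_018152.2, 98180019 to 98199491, plus strand), an adhesion molecule of endothelium and of injured proximal tubule, had 15.5, 15.4, 15.6 and 21.0 in the high libraries and 12.3, 8.28, 4.50 and 7.12 in the low ones, a log2 difference of 1.04. This call rested on single libraries, as the difference was 0.82 without female 3, 0.94 without female 6, 0.67 within the males and 0.95 after median scaling. C3, a complement component, differed by 1.78 with overlap, at 1.10 in male 9 and 2.01 in female 7. LCN2, a secreted protein raised in tubular injury, differed by 0.30, and by -0.05 without female 3.

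**Figure D3:**
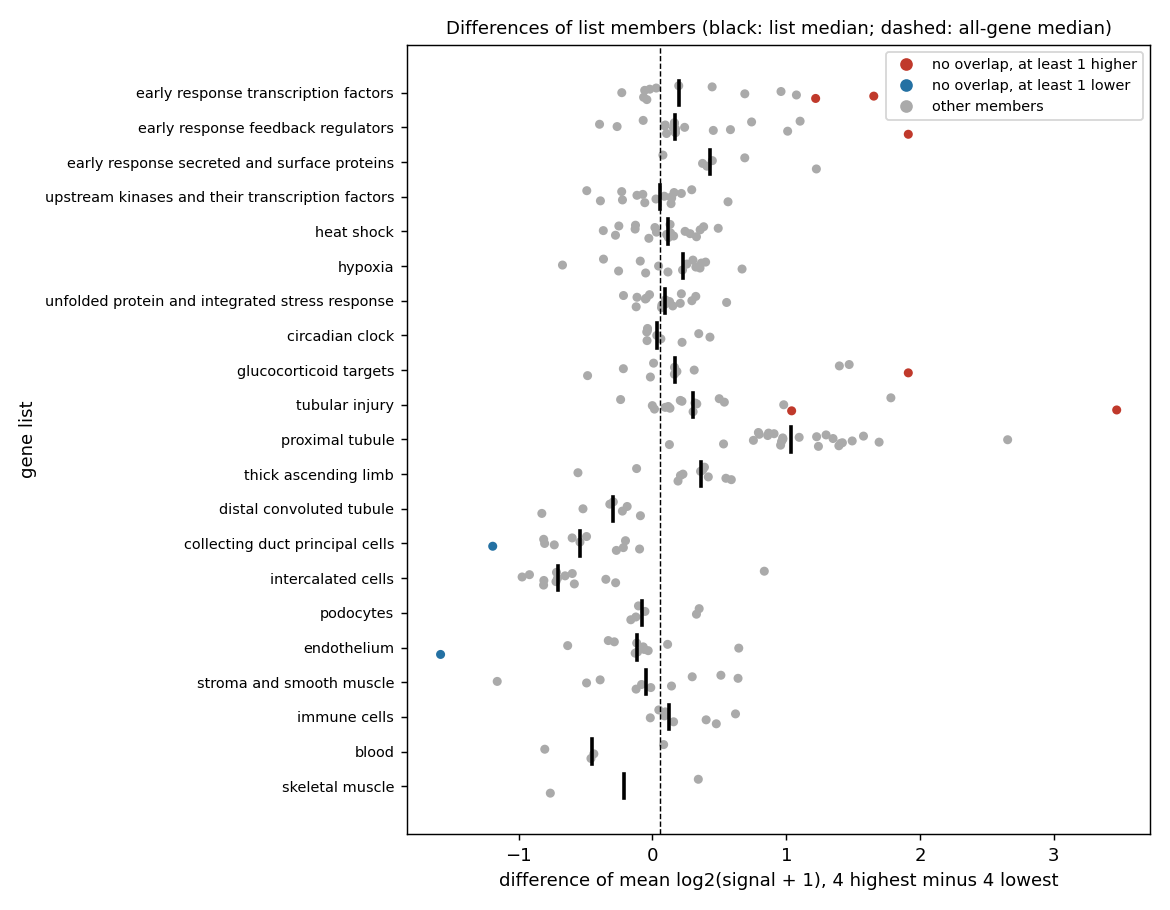
Difference in mean log2(signal + 1) between the 4 highest and 4 lowest libraries for each tested member of 21 gene lists; red and blue points are members apart by the rule (higher and lower), the black bar is the list median and the dashed line the all-gene median of 0.06. Proximal tubule genes lie to the right (median 1.04) without one being apart, and intercalated cell genes to the left (median -0.71).

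The levels of all 5 nephron segment lists overlapped between the groups, and 1 member of them was apart, beside 0.381% of all genes. All 24 proximal tubule markers had a higher mean in the high libraries, with a median difference of 1.04, but none was apart. The list level was 6.77 to 8.57 in the high libraries and 2.77 to 8.42 in the low ones, and the summed signal 7016 to 17834 against 370 to 18318. The median was -0.12 without female 3 and -0.18 within the males, so the direction rested on female 3. SLC7A13, an amino acid transporter of the straight tubule, had the largest difference, at 2.65, and SLC22A6, the organic anion transporter OAT1, followed at 1.69. Without female 3 they were 1.49 and -0.19.

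Distal markers had lower means in the high libraries, with overlap. None of 13 intercalated cell markers was apart, and 12 had a difference below 0, with a median of -0.71. Their level was 4.08 to 5.33 in the high libraries and 5.06 to 6.12 in the low ones. ATP6V1C2, a proton pump subunit, and RHCG, an ammonia transporter, differed most, by -0.97 and -0.92. The median was -0.38 within the males and -1.07 within the females. All 11 principal cell markers had differences below 0, with a median of -0.54, which was -0.08 within the males, -0.21 without female 6 and -0.23 without female 3. SCNN1B (gene31643, NC_018171.2, 21026118 to 21112441, plus strand), the beta subunit of the epithelial sodium channel, was apart and lower. It had 13.0, 16.5, 20.8 and 3.38 in the high libraries and 35.2, 23.8, 28.3 and 23.5 in the low ones, a log2 difference of -1.19 that became -0.69 without female 6 and was -0.77 within the males. HSD11B2, which protects the mineralocorticoid receptor from cortisol, differed by -0.81.

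The 7 distal convoluted tubule markers had a median of -0.29, with CALB1, a calcium-binding protein, at -0.83 and KLHL3 at -0.52. Without female 6 the median was -0.07, and without female 3 it was -0.73. The 11 thick limb markers had a median of 0.36, which was 0.92 within the males and -1.18 within the females. SLC12A1, the sodium-potassium-chloride cotransporter, was at 0.59 and BSND at -0.56. None of either list was apart. The part of these markers in the early gene differences was not tested.

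Markers of other cells overlapped between the groups in summed signal. Immune markers had a median of 0.13 over 8 tested, led by CD2 at 0.62 and PTPRC at 0.48, and their summed signal of 163 to 457 in the high libraries overlapped with 207 to 308 in the low ones. Podocyte markers had a median of -0.08 over 6, with PLA2R1 at 0.35 and CLIC5 at 0.33. Without female 3 the median was -0.58 and these genes were at -0.03 and -0.76. Stroma and smooth muscle markers had one of -0.05 over 10, which was 0.33 without female 3, with MYH11 at -1.16 and DES at 0.64. Blood markers had one of -0.45 over 4, with ALAS2 at -0.80 and HBA1 at -0.46, and it was -1.12 within the males and 0.46 within the females. Of 17 skeletal muscle genes 2 were tested, CKM at -0.76 and ENO3 at 0.34, or -0.27 and 0.81 without female 3. The list summed to 4.45 to 24.9 in the high libraries and 5.69 to 31.2 in the low ones.

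Endothelial markers had a median of -0.11 over 12. PECAM1, an endothelial adhesion molecule, was the only one apart and lower, beside 0.152% of all genes. It had 2.59, 0.401, 0.474 and 0.465 in the high libraries and 6.34, 4.05, 2.60 and 5.57 in the low ones. Male 1 at 2.592 and female 3 at 2.599 differed by less than 1 step (0.0548 in male 1), so the lack of overlap is marginal. The PECAM1 values rest on 1 of its 4 transcripts, the others being outside the male part. TIE1, an endothelial receptor, differed by 0.64 with overlap, so the members differed in sign.

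Beyond the lists, the genes apart and higher with at least median abundance were led by AFP, ELMOD1, MGAM, ACMSD, SLC10A2 and SLC2A5. AFP (gene9951, NC_018156.2, 67897360 to 67921972, minus strand), a fetal serum protein, had 22.5, 23.0, 15.8 and 27.4 in the high libraries and 2.15, 12.7, 1.91 and 11.7 in the low ones, a log2 difference of 1.85. ELMOD1 (gene24847, NC_018165.2, 97460249 to 97538491, plus strand), which activates the hydrolysis of GTP by ARF proteins, had 31.8, 18.6, 8.27 and 15.0 against 7.60, 6.39, 3.04 and 1.98, a log2 difference of 1.74. For both, no left-out library brought the difference below 1. A pseudocount of 10 did, at 0.97 for AFP and 0.90 for ELMOD1. AFP also overlapped between the groups with signal scaled to the total without mitochondrially encoded genes, and with score and values centred on sex.

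The other 4 act at the apical side or in the metabolism of absorptive epithelia, and the lowest value of each was that of female 3. MGAM, the brush border maltase, had 33.0, 69.0, 34.9 and 44.9 in the high libraries and 29.2, 32.7, 0.364 and 24.8 in the low ones. SLC10A2, the sodium-dependent bile acid transporter, had 14.1, 25.5, 15.0 and 21.0 against 11.1, 9.02, 0.618 and 9.72. SLC2A5, the fructose transporter, of which 1 of 2 transcripts was held in both tables, had 41.0, 73.3, 46.2 and 39.2 against 37.1, 26.6, 3.15 and 21.7. ACMSD, an enzyme of tryptophan breakdown, had a log2 difference of 1.54. Without female 3 the differences were 0.58 for MGAM, 0.83 for SLC10A2, 0.78 for SLC2A5 and 0.60 for ACMSD, all under the minimum of 1. Within the males they were 0.66, 0.71, 0.84 and 0.73, in the same order, and MGAM overlapped between the groups after median scaling.

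**Figure D4:**
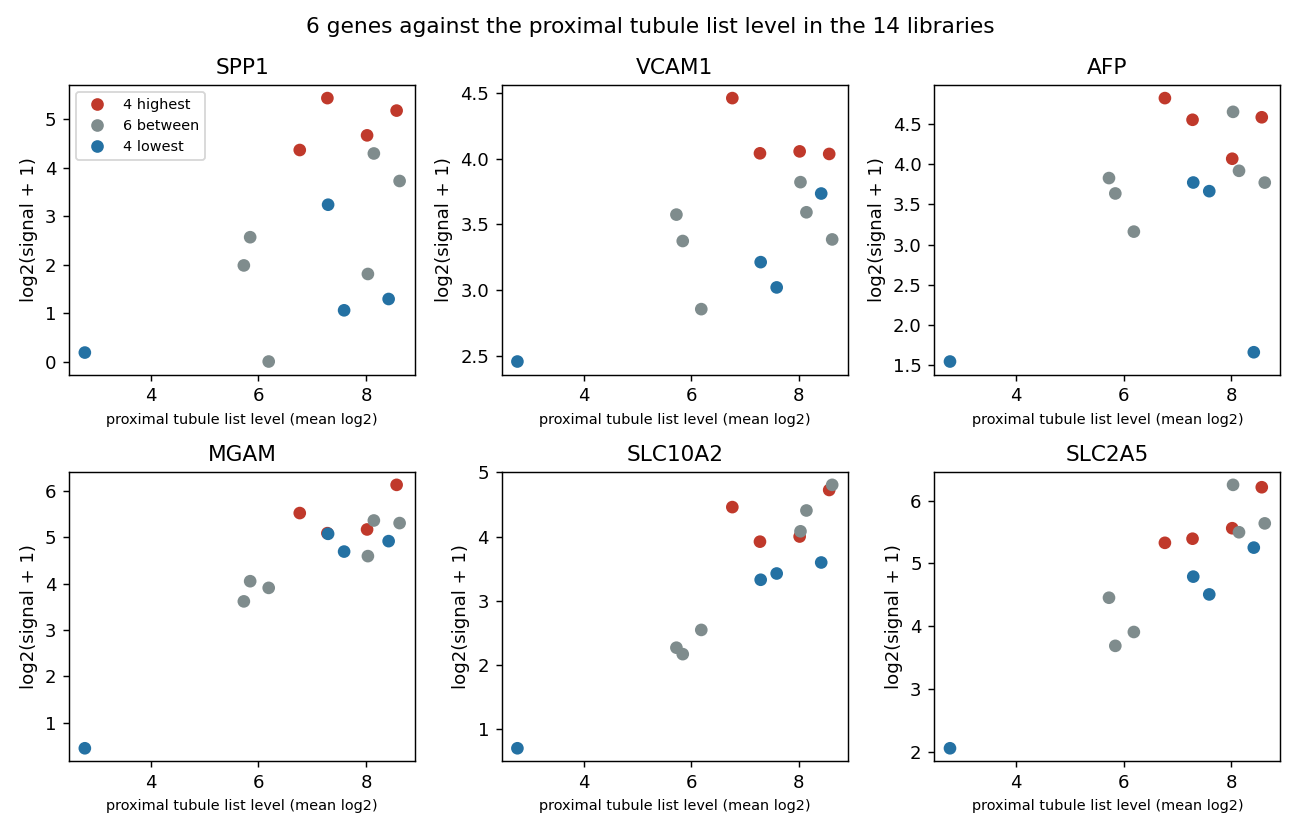
log2(signal + 1) of 6 genes that were apart, against the mean log2 level of the proximal tubule list, in the 14 libraries (red, 4 highest; grey, 6 between; blue, 4 lowest). Female 3 is the blue point at a level of 2.77, and it is the lowest of the 4 low libraries in all 6 panels, while SPP1 and VCAM1 keep the 4 high libraries on top at proximal tubule levels of 6.77 to 8.57.

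Of the 14 genes that were apart and lower, only SCNN1B, BARX2 and INPP5J had all transcripts of the female table in both tables. For the rest, values covered part of a gene's transcripts. Examples were USP19 with 3 of 15, ZC3H11A with 4 of 12 and SIRT5 with 1 of 2. Of the genes apart and higher, only SLC2A5, CMTM7, MRPS28 and RFWD2 were held in part. Outside the lists, INPP5J, an inositol phosphatase, was the only gene apart and lower with at least median abundance. It had 5.16, 9.08, 10.5 and 0.722 in the high libraries and 19.5, 14.8, 17.6 and 11.7 in the low ones, a log2 difference of -1.49 that became -0.89 without female 6 and was -0.85 within the males.

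The 6 libraries between entered neither group mean, and a limma slope of log2(signal + 1) on the score was tested in them. The same score had placed them between. Their scores spanned 2.96 to 3.85, a narrow range. At an adjusted p of 0.05, 0 of 9191 genes passed (0%), the smallest adjusted p being 0.827, and 265 had an unadjusted p under 0.05. Without the mean-variance trend 0 passed and 271 had such a p, and with sex as a term 0 passed and 581 did.

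Most genes leaned upward with the score in these 6 libraries: 82.1% had a slope above 0, and 73.1% with sex as a term, a lean that depends on the scaling. After median scaling, 152 of the 253 genes with an unadjusted p under 0.05 had a slope below 0, whereas 53 of 265 had one as deposited. Of the 38 early response genes, 19 had a slope above 0, and 0 had an unadjusted p under 0.05. With sex as a term, 24 of the 38 had a slope above 0, and JUNB and CYR61 had an unadjusted p under 0.05. DUSP1 had a slope of 0.22 (SE 0.57, limma adjusted p = 0.880), ATF3 one of 0.17 (SE 0.42, adjusted p = 0.880) and JUNB one of 0.72 (SE 0.36, adjusted p = 0.827). SPP1 had a slope of 2.12 (SE 1.19, adjusted p = 0.827), with 18.6 in male 8 and 12.2 in male 7 but 0.0000200 in female 5. Of the 21 genes apart and higher, 20 had a slope above 0, with SERPINA1 the exception, and of the 14 apart and lower, 7 had a slope below 0.

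**Figure D5:**
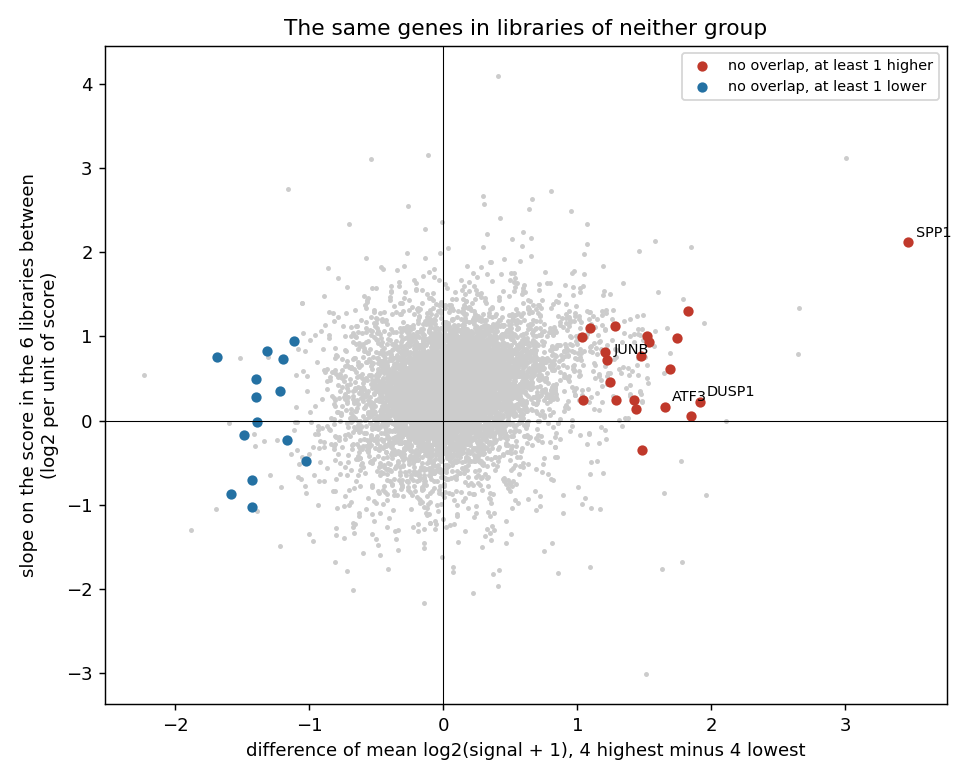
Each point is a gene: the x axis is its difference in mean log2(signal + 1) between the 4 highest and 4 lowest libraries, the y axis its slope on the score in the 6 other libraries (log2 per unit of score). Red and blue points are the 21 higher and 14 lower genes that were apart; 20 of the 21 red points lie above 0, as do 82.1% of all genes, and SPP1 stands at the upper right (3.47 and 2.12).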

How the data were processed

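For each sex, 1 deposited table gave the authors' scaled signal by transcript and library, with an offset of 1, per the file headers and the values. Partek is named in the submitters' processing notes. Aligner, genome build and scaling: not given in the sources used here. Values are not per length. The male table was held in part (17119 complete rows, all among 26644 female rows). Tables were joined by feature identifier. Transcripts without a symbol (0.754% to 3.21% of signal in the 14 libraries) were left out. Whole reads were not recovered: 44.4% to 63.9% of low values were within 0.1 step of a multiple.

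The 4 highest and 4 lowest libraries were compared on log2(signal + 1) (Python 3.11.15, numpy 2.4.6, pandas 2.3.3), with no test, as the groups come from the same values. The 6 others were tested with limma 3.58.1 in R 4.3.3, with trend and Benjamini-Hochberg adjustment, checked on simulated data. Each library is 1 animal. Members, lists and rules were chosen with earlier results of these data known.

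Named genes were, of each early response list, up to 8 genes apart and the most abundant one not apart; of each other list, the 2 largest differences; and over all other genes, up to 6 a direction, apart and at or above the median level. Others were named after their values were seen. Alternatives covered pseudocounts of 0.1 and 10, scalings, filters, group sizes, sex and single libraries.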

Additional observations from a re-analysis of the deposited data

Results flagged for a closer look

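Of 62 sets of values, each over the ranked libraries of 1 sex, 5 held a library that stood apart, and chance gives about 5% of sets. That rate does not hold for sets of genes named for their difference between the groups, such as ATF3 and SCNN1B. Female 3 had the lowest proximal tubule list level of the females, at 2.77 next to 5.73. Male 1, the library of highest score, had the lowest podocyte list level of the males, at 3.63 next to 4.25. Female 6 had the largest step between low values of the females, 0.318 next to 0.0946, which marks the shallowest library. Female 6 also had the highest log2(signal + 1) of ATF3 among the females, 3.21 next to 1.17, and the lowest of SCNN1B, 2.13 next to 4.09.

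The differences of 4 genes pointed in opposite directions in the sexes, without overlap in either. That of SLC12A1 was 1.32 for the 3 high and 2 low males and -0.99 for female 6 against female 7 and female 3. That of IER5, an early response factor, was 0.23 in the males and -1.05 in the females, and that of ZFP36L2, an mRNA decay factor, 0.90 and -0.42. SPRY4, a feedback inhibitor of receptor tyrosine kinases, stood at -1.05 and 1.48. The difference between the sexes was not tested. In the females 1 library stood against 2, where genes often fail to overlap by construction. The share of all genes that do the same was not worked out, and nothing is read from the count of 4.

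The 3 libraries left out for their ACTA1 signal carried some early response genes above the highest of the 14 ranked libraries. They were rich in skeletal muscle, whose list summed to 90929 in female 1, 136144 in female 2 and 71517 in male 6. In the ranked libraries it reached at most 31.2. Their relative depth was low, at 0.224, 0.169 and 0.181, in the same order. The values below thus set muscle-rich libraries against kidney libraries. FOS was 83.0 in female 2 and 45.5 in male 6, against at most 44.8. JUN was 170 in female 1, 274 in female 2 and 132 in male 6, against at most 79.8. ATF3 was 67.2, 18.3 and 11.7 in these libraries, against at most 8.27, and DUSP1 was 64.4, 188 and 82.2, against at most 56.7. EGR1, at 17.5, 7.57 and 31.4, and JUNB, at 13.7, 5.05 and 10.3, were not above the ranked libraries there, nor was FOS in female 1, at 12.1.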

How the results depend on the processing

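The number of genes apart was 35. It was 58 with a pseudocount of 0.1 and 3 with one of 10, 12 with a filter at a signal of 10, 347 for the 3 highest and 3 lowest libraries and 19 for 5 and 5. Within females it was 1943 (1 library against 2), within males 198 and within the males of the first name series, a setting added after seeing the data, 318. It ranged from 63 to 98 without 1 of the 8 libraries. Smaller groups overlap less by construction. The count of early response genes apart was 3 of 38, beside 35 of all 9191 genes. With a pseudocount of 10 it was 1 (3 of all genes), and for 3 and 3 it was 5 (347). Within females it was 9 of 38, beside 1943 of 9191. Within males it was 7 (198 of all genes) and within the first male series 6 (318). It ranged from 2 to 6 without 1 library, and nothing is read from these counts. Scaling changed the split of higher and lower genes from 21 and 14 to 23 and 25 (median), 25 and 26 (upper quartile) and 26 and 26 (total without mitochondrially encoded genes). With score and values centred on sex, 41 genes were apart, 15 of them among the 35. The slope test gave 0 genes in every setting run, leaving out 1 of the 6 libraries included. Of the list medians 418 of 440 alternative values, and of the gene differences 2045 of 2153, moved by less than 1 SD within groups, and no gene that was apart changed sign. Of the genes apart, DUSP1 stayed apart in every setting run, as did SPP1 except with the filter at 10, which it did not pass. No paired analysis was possible because the labels carry no replicate numbers, and the library numbers used here follow accession order and pair nothing. Depth limits low genes in female 6 most.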
